A study of Mus musculus with 12 samples.

Results

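Ptprc, Spi1, Itgam, Adgre1, Csf1r, Cd68, Lyz2, Laptm5 and Ikzf1, genes by which blood cells and macrophages are recognised, were examined in cultures labelled as mesenchymal stem cells (MSCs) of the mouse, stromal cells with the potential to become osteoblasts, adipocytes or chondrocytes. The 9 genes were given as a fixed list, chosen with earlier results of these data known, out of 21827 protein-coding genes of the GENCODE annotation, and their chromatin was read from every called region that overlapped the gene with 20 kb added on each side. The question was whether these genes carried the acetylated or the Polycomb form of chromatin in MSCs of young and of old mice. The measurement was CUT&RUN, which tethers a nuclease to antibody-bound nucleosomes, cuts the DNA around them and sequences the fragments that come loose. Young mice were 3 to 5 months old and old mice 18 to 22 months old, and both sets of cells were kept at 2% O2 throughout. Cells of each sample were split between an antibody against H3K27ac and an antibody against H3K27me3, which gave 12 libraries in 4 groups of 3. The number of animals behind a library, the genotype and any sort of the cells before culture were not given in the labels, so the p-values measure the spread between these samples, which may be technical.

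H3K27ac, acetylation of lysine 27 of histone H3, marks active promoters and enhancers. H3K27me3, trimethylation of the same residue by Polycomb repressive complex 2, marks genes kept silent, and it tends to cover genes of other lineages in broad domains. The genes examined fall into 3 roles. Spi1 (PU.1) and Ikzf1 (Ikaros) are transcription factors of blood lineages. Ptprc (CD45, the pan-leukocyte tyrosine phosphatase, commonly used to exclude blood cells from MSC preparations), Itgam (CD11b, an integrin alpha chain), Adgre1 (F4/80, the classical mouse macrophage antigen) and Csf1r (the receptor for macrophage colony-stimulating factor) act at the cell surface. Cd68, Lyz2 and Laptm5 encode proteins of lysosomes or granules: a macrophage lysosomal glycoprotein, a bacteria-degrading lysozyme and a lysosomal membrane protein that limits antigen-receptor signalling.

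Polycomb chromatin was more frequent than acetylation at the start sites of these genes, and no gene had both. An H3K27me3 region lay over a transcription start site (TSS, with 1 kb on each side) of Itgam, Lyz2, Laptm5 and Ikzf1, 4 of 9 genes or 44.4%, against 34.0% of all protein-coding genes. An H3K27ac region lay over a TSS of Csf1r and Cd68, 2 of 9 genes or 22.2%, against 53.6% of all protein-coding genes. Ptprc, Spi1 and Adgre1 had neither mark at a TSS. H3K27me3 regions covered 50% or more of the gene body in 5 of 9 genes, which were Ptprc, Itgam, Lyz2, Laptm5 and Ikzf1 (55.6%, against 23.1% of all genes). These are counts of called regions with no test, and the tables list called regions only, so a gene without a region had no called region rather than no reads. All 29 regions of the 9 genes were called in both ages, since each carried the state that the tables give to regions found in old and young cells. The same state was given to 99.2% of all H3K27ac and 96.9% of all H3K27me3 regions.

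**Figure D1:**
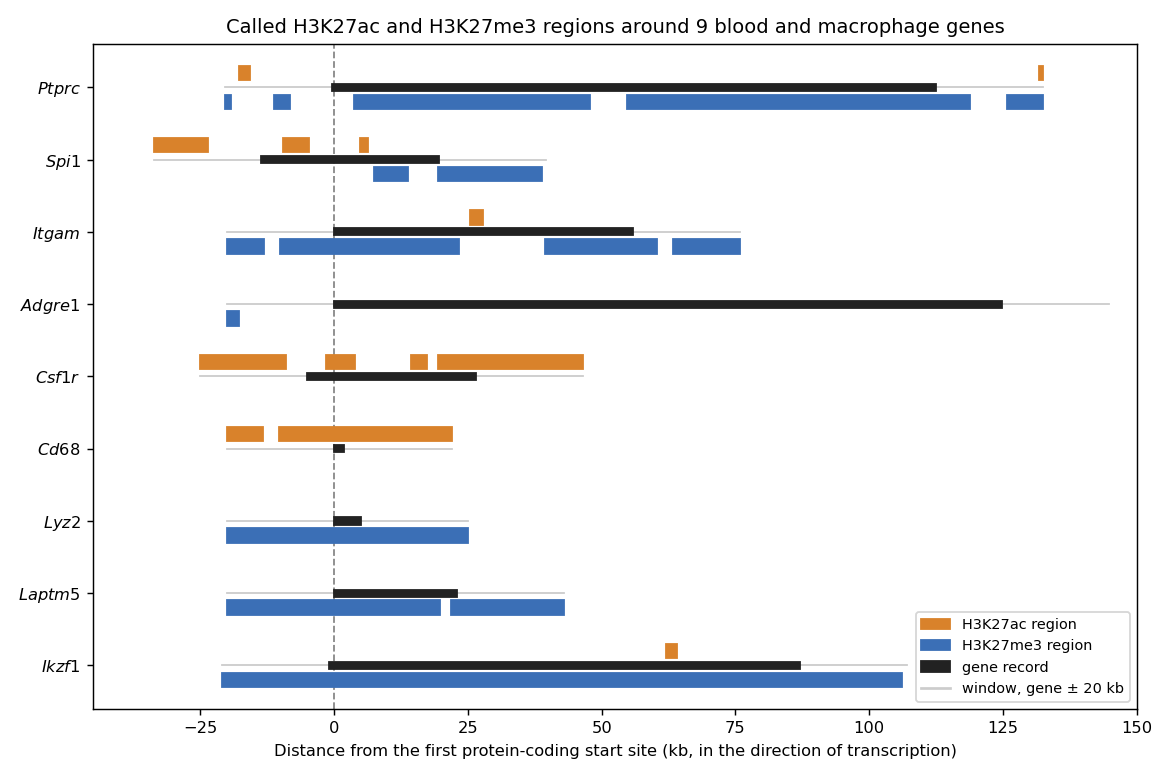
Called H3K27ac (orange) and H3K27me3 (blue) regions around each gene, with distance from the first protein-coding start site in kb on the x axis, the gene record in black and the window of the gene with 20 kb on each side in grey, where regions are cut off. Blue regions cross the start site of Itgam, Lyz2, Laptm5 and Ikzf1, orange regions cross that of Csf1r and Cd68, and Ptprc, Spi1 and Adgre1 have neither there.

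The sequences in front of these start sites differed in CpG content, which is shown here because CpG-rich promoters are the usual substrate of Polycomb recruitment in mammals. RefSeq promoter sequences (GRCm38.p6) were matched for 6 of the 9 genes. Spi1, Adgre1 and Csf1r had no entry. Each sequence is given 5′ to 3′ up to the annotated start, with every CG in capitals. Ikzf1 (chr11:11685675-11685924, plus strand) and Lyz2 (chr10:117282322-117282522, minus strand) both lay under H3K27me3, with 44 CG in 250 bases at Ikzf1 and 1 CG in 201 bases at Lyz2. Cd68 (chr11:69666171-69666420, minus strand) lay under H3K27ac and held 4 CG in 250 bases. Ptprc (chr1:138175307-138175555, minus strand) had neither mark at its start and held 4 CG in 249 bases.
Ikzf1: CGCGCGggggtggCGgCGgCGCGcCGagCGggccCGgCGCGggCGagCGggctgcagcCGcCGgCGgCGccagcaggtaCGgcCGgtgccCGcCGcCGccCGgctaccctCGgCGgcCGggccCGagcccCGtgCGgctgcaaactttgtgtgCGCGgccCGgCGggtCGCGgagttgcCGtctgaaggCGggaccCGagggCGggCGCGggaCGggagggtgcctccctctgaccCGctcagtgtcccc
Lyz2: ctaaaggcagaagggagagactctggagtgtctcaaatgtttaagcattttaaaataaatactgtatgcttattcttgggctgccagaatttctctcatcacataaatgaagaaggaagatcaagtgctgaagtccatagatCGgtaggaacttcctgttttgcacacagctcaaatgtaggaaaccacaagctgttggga
Cd68: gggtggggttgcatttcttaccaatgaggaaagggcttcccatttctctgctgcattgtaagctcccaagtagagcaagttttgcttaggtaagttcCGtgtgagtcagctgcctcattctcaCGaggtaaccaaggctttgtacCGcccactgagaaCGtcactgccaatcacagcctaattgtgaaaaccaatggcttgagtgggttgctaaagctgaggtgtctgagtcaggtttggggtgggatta
Ptprc: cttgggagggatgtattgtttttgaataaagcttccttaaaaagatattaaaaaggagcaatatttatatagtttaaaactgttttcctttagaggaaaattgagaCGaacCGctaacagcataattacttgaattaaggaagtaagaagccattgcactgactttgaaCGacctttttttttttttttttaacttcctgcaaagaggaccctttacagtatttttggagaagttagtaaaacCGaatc
The median RefSeq promoter held 6 CG in the 250 bases before its start, so Ikzf1 stood above it, and Lyz2, Cd68 and Ptprc below it. The core GAGGAA, bound by PU.1 and its ETS relatives, was found on either strand within the 250 bases before the RefSeq start in 4 of 6 genes (Ptprc, Itgam, Cd68 and Laptm5) and in 23.3% of all promoters in that table. At Laptm5 the RefSeq start lies 191 bp past the GENCODE start, and its match lay after the latter. A match is a description of the letters and not a bound site.

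Around the start site, within 500 bp on each side, the ratio of observed to expected CpG was 0.977 at Ikzf1, at the 97.0th percentile of all protein-coding genes. At the other 8 genes the ratio was low, from 0.0981 at Lyz2 to 0.341 at Spi1, against a median of 0.567 over all genes. Csf1r (0.163) and Cd68 (0.188) were CpG-poor for acetylated genes, whose median over 9737 genes with H3K27ac alone was 0.739. Lyz2, Itgam (0.220) and Laptm5 (0.241) also lay under the median of 0.381 of the 5444 genes with H3K27me3 alone. Ptprc (0.322) and Spi1 (0.341) had higher ratios than the median of 0.15 of the 4676 genes with neither mark, and Adgre1 (0.115) a lower one. Low ratios thus occurred under H3K27ac, under H3K27me3 and under neither mark, and the 1 high ratio lay under H3K27me3.

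**Figure D2:**
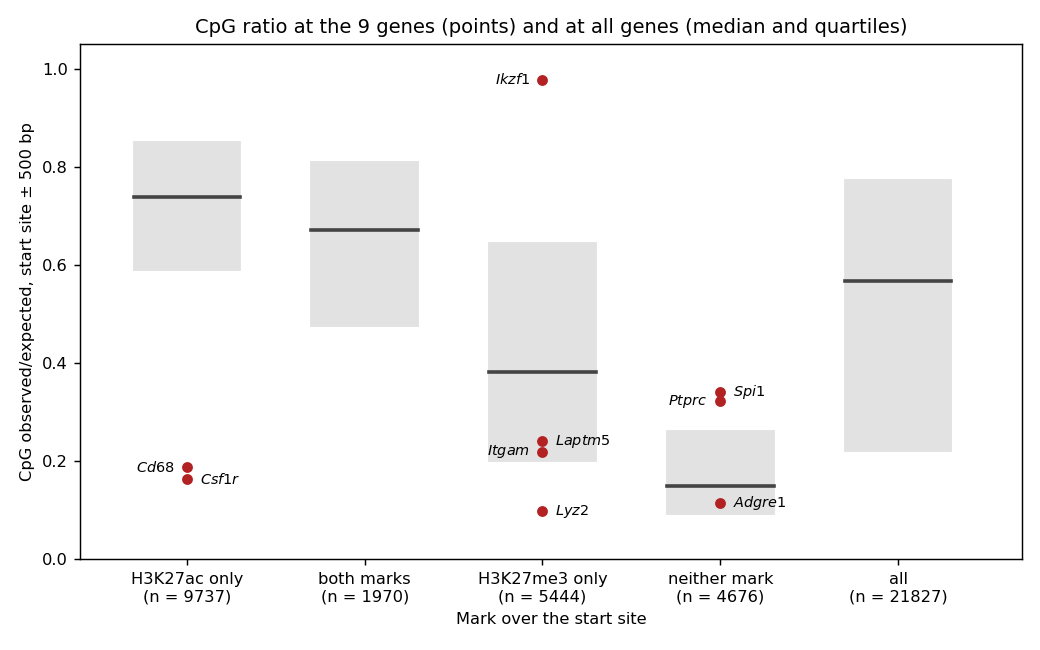
Ratio of observed to expected CpG within 500 bp of the start site on the y axis, by the mark over the start site on the x axis. Points are the 9 genes and grey boxes with a line are the quartiles and median of all protein-coding genes of each state. Ikzf1 sits at 0.977 and the other 8 genes at or below 0.341.

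Ikzf1, a zinc-finger factor of lymphoid and other blood lineages, lay inside the longest H3K27me3 region of the set. The region at chr11:11659001-11792000 was 133 kb long and covered 100% of the gene (chr11:11685003-11772926, plus strand). Read density, in reads per kb of region per 1000000 reads after median-of-ratios (RLE) scaling, is the level used throughout. In the Ikzf1 region this density was 1.16, 1.11 and 1.18 in young replicates 1 to 3 and 1.09, 0.830 and 1.00 in old replicates 1 to 3. The 3 old libraries were all below the 3 young ones, although old replicate 1 lay close to young replicate 2. The difference was -0.25 on the log2 scale of old over young (95% CI -0.44 to -0.05), with an unadjusted p = 0.0150 and an adjusted p = 0.223, so it did not pass the threshold of 0.05 (limma, adjusted over all 28047 regions). Old replicate 2, with the lowest value, was also the shallowest H3K27me3 library. A 2.0 kb H3K27ac region at chr11:11748001-11750000, over an exon 61.6 kb from the TSS, lay within this Polycomb region. Its density was 1.55, 1.44 and 0.740 in young and 1.49, 0.393 and 1.40 in old libraries, so the groups overlapped, and it held between 2 and 19 reads per library.

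Laptm5, the lysosomal membrane protein, had the highest H3K27me3 density at a start site among the 9 genes. Its TSS region at chr4:130881501-130933000 was 51.5 kb long, and together with a second region H3K27me3 covered 91.3% of the gene (chr4:130913125-130936141, plus strand). The TSS region had densities of 1.26, 1.40 and 1.40 in young and 1.27, 1.26 and 1.22 in old libraries. Only young replicate 1 fell within the old range, and the difference of -0.11 (95% CI -0.29 to 0.07) gave an adjusted p = 0.617. The second region, chr4:130935001-130970000, also covered the TSS of the neighbouring cartilage gene Matn1. Densities there were 1.58, 1.64 and 1.42 in young and 1.51, 1.20 and 1.30 in old libraries. These groups overlapped through old replicate 1, and the difference was -0.21 (95% CI -0.42 to 0.003, adjusted p = 0.370). Averaged by length over both regions, H3K27me3 density was 1.39, 1.50 and 1.41 in young and 1.37, 1.24 and 1.25 in old libraries. On this average, which was not tested, the groups did not overlap, although they overlapped in each region taken alone. On such averages the groups overlapped at Ptprc, Spi1, Itgam, Csf1r and Cd68, the other genes with several regions of 1 mark. Groups without overlap also occurred in 19.1% of all single H3K27me3 regions, a share that was not computed for averages.

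Lyz2, the macrophage lysozyme used to drive Cre in myeloid cells, lay wholly within a 96 kb H3K27me3 region at chr10:117226501-117322500 (gene chr10:117277331-117282321, minus strand). Densities were 1.14, 1.24 and 1.17 in young and 1.21, 1.24 and 0.987 in old libraries. The age groups overlapped, with old replicate 3 the lowest, and the difference was -0.05 (95% CI -0.25 to 0.14, adjusted p = 0.848). The same region covered the TSS of Lyz1, a near-identical lysozyme gene, and of 9530003J23Rik. Reads of Lyz1 and Lyz2 may be hard to place apart, so the level at Lyz2 itself is uncertain, while the region extends well beyond both genes.

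Itgam, the alpha chain of the Mac-1 integrin, had 4 H3K27me3 regions in its window, which covered 71.4% of the gene (chr7:128062640-128118491, plus strand). The TSS region at chr7:128052501-128086000, 33.5 kb long, also covered a start site of Gm49368. Densities in this region were 0.979, 1.03 and 0.878 in young and 0.997, 0.925 and 0.899 in old libraries. The groups overlapped almost fully and differed by -0.03 (95% CI -0.25 to 0.19, adjusted p = 0.932). A second region of 21 kb lay within the 3′ part of the gene, at 1.31 ± 0.0644 in young and 1.17 ± 0.121 in old libraries (SD, n = 3). A region of 44.5 kb downstream covered the start sites of Itgad and Itgax, which encode related integrin alpha chains, at 1.14 ± 0.0459 and 1.00 ± 0.114. The differences of these 2 regions, -0.17 and -0.20, had adjusted p-values of 0.530 and 0.378. The last H3K27me3 region, 7 kb long and 13.1 kb upstream of the TSS, averaged 0.933 (adjusted p = 0.937). One H3K27ac region of 2.5 kb, in an intron 25.3 kb from the TSS, lay between the Polycomb regions. It ranged from 0.315 to 2.24 over the libraries on as few as 2 reads, and its difference of -0.48 had a 95% CI of -1.43 to 0.47, so the spread between libraries was wider than the difference.

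Ptprc, which encodes CD45, had Polycomb chromatin over the gene body and an uncovered start site. H3K27me3 regions covered 90.1% of the gene (chr1:138062861-138175708, minus strand), in blocks of 64 kb and 44 kb. The protein-coding start sites lay in a gap of 12 kb between called regions, the nearest of them 3.77 kb from the 44 kb block. That block, at chr1:138127501-138171500, had densities of 0.669, 0.537 and 0.621 in young and 0.603, 0.692 and 0.627 in old libraries. The groups overlapped, the difference was 0.07 (95% CI -0.16 to 0.31, adjusted p = 0.824), and the density lay at the 19.7th percentile of all H3K27me3 regions. The 64 kb block over the 3′ part was denser, at 0.825 ± 0.0705 in young and 0.860 ± 0.0555 in old libraries (SD, n = 3, adjusted p = 0.830). Another 3 H3K27me3 regions of 3 to 10 kb lay in the flanks, with mean densities of 0.631 to 0.691. Acetylation was called only in the flanks of Ptprc, in a 2.0 kb region 15.7 kb upstream and a 6 kb region beyond the 3′ end, and on 0% of the gene. The upstream region had H3K27ac densities of 0.653, 1.15 and 0.987 in young and 0.996, 1.38 and 1.15 in old libraries, on 7 to 12 reads each, with overlapping groups and an adjusted p = 0.844.

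Spi1, the master factor of myeloid development, carried both marks near its start site but neither over it. The protein-coding TSS lay 4.60 kb from a 5 kb H3K27ac region on its upstream side, within the gene record (chr2:91082390-91115756, plus strand), and 7.41 kb from a 6.5 kb H3K27me3 region downstream. The upstream acetylated region, chr2:91086501-91091500, had densities of 0.751, 0.635 and 0.822 in young and 0.678, 0.393 and 0.917 in old libraries. The old libraries reached both below and above the young ones, the difference was -0.21 (95% CI -0.84 to 0.43, adjusted p = 0.886), and the region stood at the 1.78th percentile of H3K27ac densities. The strongest acetylation in the Spi1 window, 1.64, belonged to a 19.5 kb region, chr2:91053001-91072500, over the start sites of Psmc3, a proteasome subunit, and Slc39a13, a zinc transporter of connective tissue. The remaining H3K27ac region, 1.5 kb in an intron 4.91 kb downstream of the TSS, averaged 1.20 on 4 to 11 reads per library. For H3K27me3, the downstream region chr2:91103501-91110000 had densities of 1.00, 1.10 and 1.33 in young and 1.23, 1.49 and 1.02 in old libraries. These overlapped and differed by 0.11 (95% CI -0.26 to 0.49, adjusted p = 0.829). A denser H3K27me3 region at the 3′ end, 1.38 on average, reached over the TSS of the heart muscle gene Mybpc3.

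Adgre1, which encodes F4/80, had only 1 called region in its window. No region of either mark touched the gene (chr17:57358691-57483527, plus strand) and no H3K27ac region lay in its window. The gap between called H3K27me3 regions around its TSS was 1578 kb long and so reached far beyond the gene. The single H3K27me3 region, 4.5 kb long, lay 17.7 kb upstream at chr17:57336501-57341000. Its densities were 1.16, 1.12 and 0.727 in young and 0.752, 0.569 and 0.704 in old libraries, and young replicate 3 fell among the old values. The difference of -0.52 was the largest of the 16 H3K27me3 regions (95% CI -1.0 to -0.03), with an unadjusted p = 0.0398 and an adjusted p = 0.327, on 9 to 53 reads per library.

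Csf1r, the macrophage growth factor receptor, and Cd68 were the genes with H3K27ac over a TSS and no H3K27me3 region in the window. Of the acetylated regions over a start site in the set, that of Csf1r alone covered no other gene's TSS. The region, 5.5 kb at chr18:61104001-61109500, had H3K27ac densities of 1.63, 1.26 and 1.55 in young and 1.78, 1.50 and 1.30 in old libraries. The groups overlapped in part, old replicate 1 being the highest and young replicate 2 the lowest, with a difference of 0.04 (95% CI -0.38 to 0.45, adjusted p = 0.976). Its mean density of 1.50 lay at the 83.9th percentile of start sites with H3K27ac. The gene record (chr18:61100598-61132149, plus strand) begins upstream of this region, so with the 5′ end of the record in place of the protein-coding TSS, Csf1r no longer counted as acetylated and Cd68 was the only such gene.

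Acetylation also flanked Csf1r on both sides. A 55 kb region over Pdgfrb, a receptor gene of stromal cells and pericytes and one of the stromal markers used here, ended 9.07 kb before the Csf1r TSS, at a density of 1.66. A second region of 55 kb ran from the 3′ part of Csf1r over the TSS of Hmgxb3, at 0.995. A weaker 3 kb region lay in an intron, at 0.831. No H3K27me3 region lay in the window, and the nearest one was 67.1 kb away from the TSS.

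Cd68, the lysosomal glycoprotein of macrophages, was acetylated as 1 of several genes under a broad region. The 44.5 kb region at chr11:69632001-69676500 covered 100% of Cd68 (chr11:69664213-69666153, minus strand) and the start sites of Eif4a1, Fxr2, Mpdu1 and Sox15. Eif4a1 is a translation initiation factor used by all cells, and Cd68 lies just downstream of it in a tightly packed stretch. H3K27ac density was 1.08, 1.15 and 1.02 in young and 1.00, 0.857 and 1.07 in old libraries. The groups overlapped, and the difference was -0.15 (95% CI -0.36 to 0.05, adjusted p = 0.676). The mean density of 1.03 lay at the 27.9th percentile of start sites with H3K27ac and under the median region of 1.10. The other H3K27ac region of the window, 17.5 kb over the start sites of Senp3, Tnfsf12, Tnfsf13 and Tnfsfm13, had 1.07 ± 0.0639 in young and 1.13 ± 0.0258 in old libraries. Region values cannot assign reads to 1 of several genes under the same region, so the share of acetylation at Cd68 itself is not known.

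**Figure D3:**
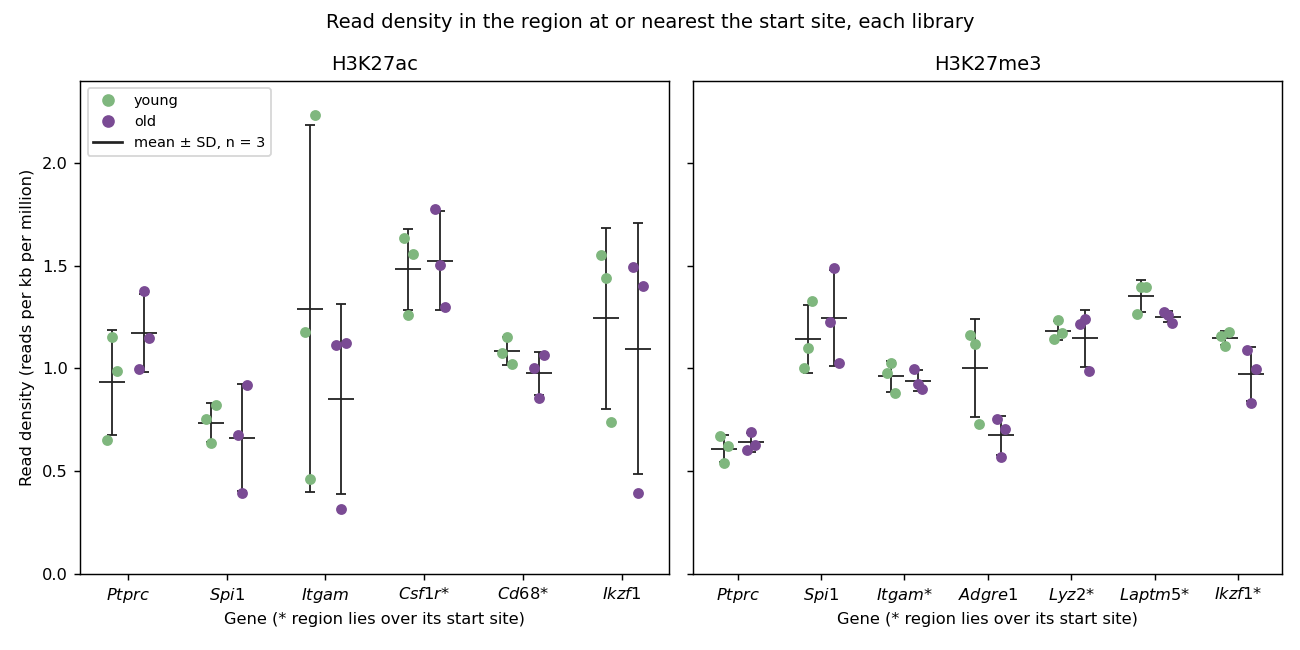
Read density (y axis, in the same unit as the text) in each library for the region over or nearest the start site of each gene, H3K27ac on the left and H3K27me3 on the right. Points are libraries (young green, old purple) and bars are mean ± SD of 3. Of the 13 regions plotted, only that of Ikzf1 in H3K27me3 had all old values under all young values.

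Compared over the whole set, most of the length of the acetylated regions that reached the windows belonged to regions shared with the TSS of another gene. Lengths here are those of whole regions, and 28.9% to 72.6% of each such shared region lay inside the window. Of the 13 H3K27ac regions in the windows, 5 covered the TSS of another gene, and those 5, the Cd68 region among them, made up 191.5 kb of region against 27.5 kb in the other 8. The 8 regions without another TSS were 1.5 to 6 kb long and held 2 to 55 reads per library. The 16 H3K27me3 regions were longer, with a median of 27.3 kb and a range of 3 to 133 kb, and 11 of them, 351.5 kb in all, covered no other gene's TSS. Regions of the opposite marks overlapped in 3 cases for each mark, 23.1% of the H3K27ac and 18.8% of the H3K27me3 regions of the set, against 15.7% and 14.9% of all regions. In the windows, 6 of 9 genes had an H3K27ac region and 7 of 9 an H3K27me3 region, against 72.2% and 69.5% of all genes.

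Levels at the start sites were ordinary for H3K27me3. The 4 Polycomb-covered genes ran in density from Itgam (0.951) through Ikzf1 (1.06) and Lyz2 (1.17) to Laptm5 (1.30), with a median of 1.11 against 1.07 for all covered start sites. Over the 6 libraries Ikzf1 and Lyz2 overlapped, as did Itgam and Ikzf1, and Laptm5 was above Lyz2 in 6 of 6 libraries. For reference, 10 genes of other germ layers that are standard Polycomb targets, such as Pax6 (3.15), Neurog2 (2.81) and Nkx2-2 (2.33), had a median of 1.83, and 10 of 10 were covered. Their minimum of 1.22 was above 3 of the 4 blood genes.

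Between old and young cells, none of the regions of the 9 genes passed the test. For H3K27ac, 0 of 13 regions had an adjusted p under 0.05, against 0.0822% of all 31617 regions. Groups without overlap occurred in 0 of 13, against 14.5% of all regions, and an unadjusted p under 0.05 in 0 of 13, against 9.60%. For H3K27me3, 0 of 16 regions passed at an adjusted p under 0.05, against 0.488% of all regions. Only the Ikzf1 region had groups without overlap, 1 of 16 against 19.1% of all regions. Ikzf1 and Adgre1 reached an unadjusted p under 0.05, 2 of 16 against 13.9%. By edgeR's quasi-likelihood test and by DESeq2 on the recovered reads, 0 member regions of either mark passed as well.

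The median log2 difference of old over young was -0.003 in the 13 H3K27ac regions, 6 of them higher and 7 lower in old, and -0.05 in the 16 H3K27me3 regions, 5 higher and 11 lower. Over all regions the medians were -0.003 and -0.008, which the RLE scaling holds near 0, so they do not measure a change common to all regions. Differences ranged from -0.48 at the Itgam intron to 0.32 upstream of Ptprc for H3K27ac, and from -0.52 at Adgre1 to 0.35 upstream of Ptprc for H3K27me3. The intervals bound what these libraries could miss. In long regions they were narrow, for example -0.11 to 0.20 over Pdgfrb beside Csf1r, and in regions of a few kb they were wide. A p that misses the threshold does not show equal levels, and in such cultures fewer cells with a mark and less of the mark per cell cannot be told apart.

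**Figure D4:**
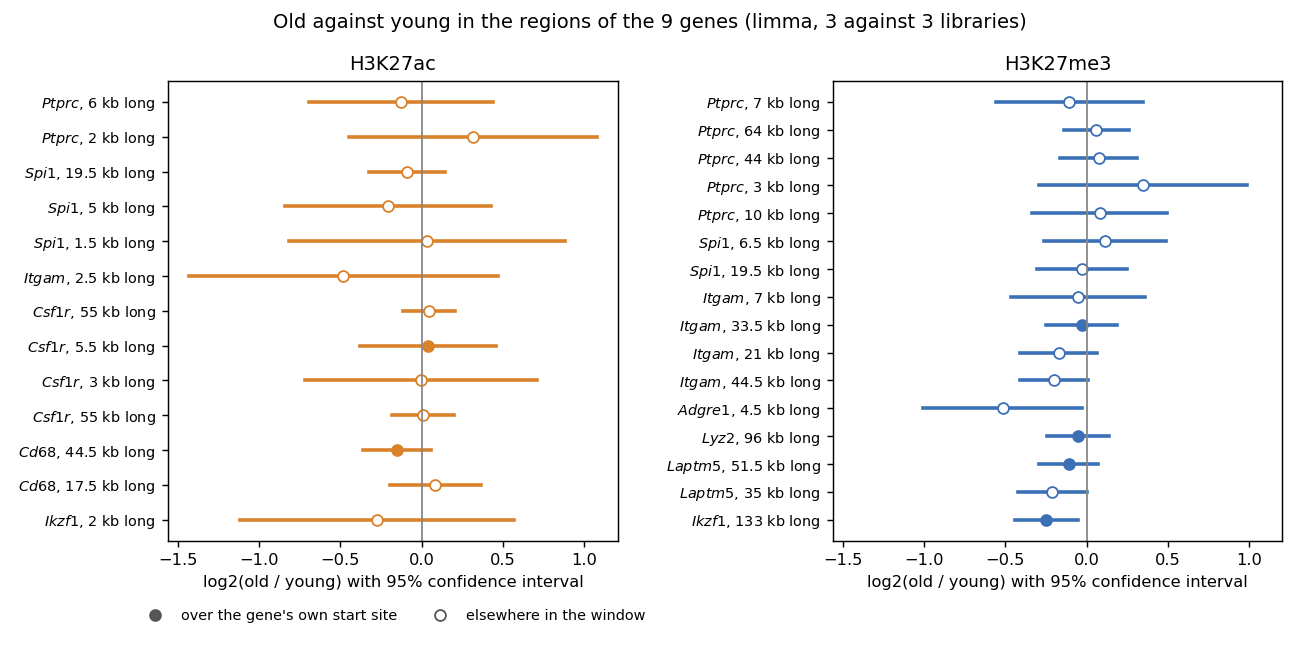
Difference of old over young on the log2 scale (x axis) with its 95% confidence interval from limma, for each of the 13 H3K27ac and 16 H3K27me3 regions of the 9 genes (y axis, in genome order within a gene). Filled points lie over the gene's own start site. The intervals of 27 of the 29 regions include 0, and the exceptions are Adgre1 and Ikzf1 in H3K27me3, neither of which passed after adjustment.

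Stromal genes were read in the same way, from a list chosen with earlier results of these data known. They are therefore no independent check of the label of the cultures. H3K27ac lay over a TSS of 18 of 18 stromal and MSC markers, against 53.6% of all protein-coding genes. Densities were highest at Prrx1 (2.09), Ly6a (2.05), which encodes Sca-1, and Col1a2 (1.99), with a median of 1.43. H3K27me3 lay over a TSS of 3 of the 18 markers, against 34.0% of all genes. Blood genes outside the set of 9 had the reverse pattern. Over 61 genes in 5 further lists, H3K27ac lay over a TSS of 10 (16.4%) and H3K27me3 over that of 43 (70.5%).

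Each blood list had more Polycomb-covered than acetylated start sites. Of 17 other macrophage genes, 12 were covered by H3K27me3, with the highest densities at the complement genes C1qa, C1qb and C1qc, which share 1 region (2.20), and 3 by H3K27ac, namely Cd14 (1.69), the Fc receptor chain Fcer1g (1.35) and the integrin chain Itgb2 (1.12). Itgb2 was counted under both marks, with an H3K27me3 density of 0.872. Among 12 regulators of blood lineages, 11 were covered by H3K27me3, led by Gfi1 (2.11), Tal1 (1.98) and Runx3 (1.80), and 2 by H3K27ac, Lyl1 (2.43) and Gata2 (1.18). For 12 leukocyte signalling genes the counts were 5 and 3, with Cd37 (1.47), Rac2 (1.15) and Coro1a (1.14) highest in H3K27me3 and Ptpn6 (1.67), Arhgdib (1.04) and Fermt3 (1.02) in H3K27ac. Lymphoid genes gave 10 and 1 of 12, led by Cd3e and Cd3d (1.75, in 1 shared region) and Rag2 (1.72), with Lck (0.938) acetylated. Of 8 erythroid genes, 5 were covered by H3K27me3, led by Slc4a1 (1.52), Ermap (1.52) and Epor (1.48). Of the 10 acetylated blood genes, 5 shared the region with the TSS of another gene, namely Fcer1g, Ptpn6, Fermt3, Arhgdib and Lyl1. The density of such a region cannot be assigned to 1 of its genes. Itgb2, Gata2 and Lck, 3 of the 10, also had an H3K27me3 region over a TSS. Whether blood cells were present in the cultures was not tested, and the values that bear on it are the 2 acetylated start sites of 9, the 10 of 61 and the densities given here.

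**Figure D5:**
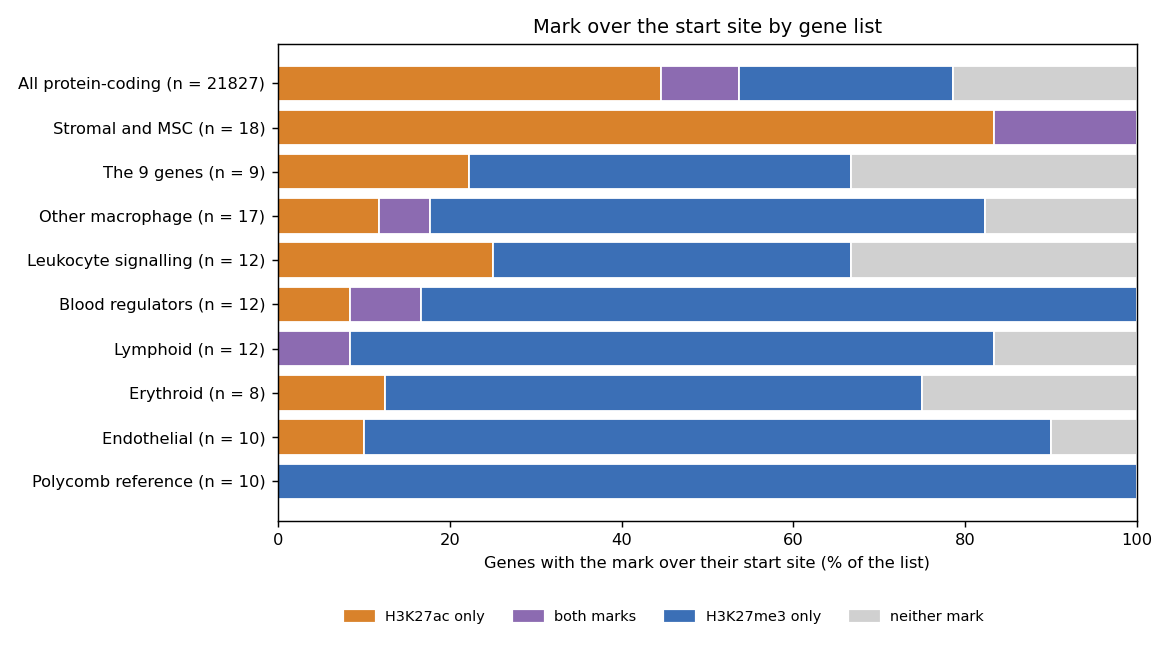
Percent of genes of each list (x axis) with H3K27ac only, both marks, H3K27me3 only or neither mark over a start site, with the number of genes in each list beside its name. The bars of the 9 genes and of every other blood list are mostly H3K27me3 or unmarked, the stromal bar is H3K27ac in 18 of 18 genes, and the Polycomb reference bar is H3K27me3 in 10 of 10.

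Among the 84 H3K27me3 regions near the 61 other blood genes, 1 (1.19%) passed the test between ages, against 0.488% of all regions, and it was named after its values were seen. Of 70 H3K27ac regions, 0 passed, against 0.0822%, and 10 had an unadjusted p under 0.05, against 9.60%. The 21.5 kb H3K27me3 region over the TSS of Gata2 (chr6:88181501-88203000), a factor of blood stem cells that other lineages also use, had densities of 1.68, 1.40 and 1.67 in young and 1.20, 0.780 and 0.781 in old libraries. All old values were below all young values, and the difference was -0.80 (95% CI -1.10 to -0.50, adjusted p = 0.0232, limma). The call was lost without any 1 of the 3 young libraries (adjusted p = 0.0586 to 0.196), where the difference was -0.76 to -0.89, and with limma without a variance trend and robust moderation (-0.80, adjusted p = 0.212). A 13 kb H3K27ac region over the same TSS had 0.989 ± 0.251 in young and 1.37 ± 0.0542 in old libraries (SD, n = 3, adjusted p = 0.300). None of the 9 genes showed such a difference.

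The depth behind these values was as follows. The H3K27ac libraries held 2750953 to 5541429 reads, with a median of 12 to 30 reads per region, and the H3K27me3 libraries held 3622108 to 9947515 reads, with 28 to 79. Old replicate 2 was the shallowest library of both marks. The share of H3K27me3 reads inside called regions was 62.3%, 66.6% and 66.6% in young and 60.8%, 59.6% and 53.8% in old libraries. It was thus lower in each old library than in each young one. The H3K27ac shares, 33.4% to 41.4%, overlapped between ages. No sequencing batch or date was given in the labels, so no comparison within batches could be made.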

How the data were processed

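CUT&RUN for H3K27ac and H3K27me3 was performed on cultured mouse MSCs, with 3 young and 3 old libraries per mark, and groups were taken from the labels. Per the labels, the processing used Bowtie2, Picard and mm10/GRCm38, with no versions; the region caller is not given in the sources used here. The authors deposited 1 table per mark, in which each called region has 1 signal value per library. This signal is named RPKM but was not divided by region length: in each column 100% of values were whole multiples of 1 step, taken as the RPKM of 1 read in 0.5 kb (tolerance 0.01 of a step). Reads and library totals were recovered from it.

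Regions were joined to GENCODE vM21 basic protein-coding genes by an overlap of at least 1 bp. Columns were RLE-scaled, 0.5 was added, and log2 values were fitted over all regions of a mark with limma 3.58.1 (trend, robust, two-sided, no filter, Benjamini-Hochberg) in R 4.3.3, so differences of regions with few reads are understated. edgeR 4.0.16 and DESeq2 1.42.0 on recovered reads were alternatives. The limma step was tested on simulated data. Density is the scaled reads per kb of region per 1000000 reads of the library. Intervals cover the spread between libraries, not the caller's choice of regions.

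The genes, the lists and the tests were chosen with earlier results of these data known. All 9 genes and every region in their windows are named, as are genes whose start sites share those regions, and for other lists up to 3 genes with the highest density per mark. Clec7a was left out of the macrophage list because the annotation used lists no protein-coding gene of that name. The publication supplied with the series concerns oxygen levels and was used for style alone. The values of 1 listed gene are not reported here.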

Additional observations from a re-analysis of the deposited data

How the results depend on the processing

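Counts of called regions depended on the processing, while 0 regions of the 9 genes were called under the main setting and under each alternative run. Over all H3K27ac regions 26 were called, against 105 on the signal as deposited, 14 and 63 with a pseudocount of 0.1 and 2, 0 without trend and robust moderation (2661 at an unadjusted p under 0.05), 96 by edgeR, 6 by DESeq2 and 2 to 45 when 1 library was left out. Over all H3K27me3 regions 137 were called, against 774 as deposited, 71 with a pseudocount of 0.1, 81 after dropping the 25% of regions with the lowest signal, 35 without trend and robust moderation, 394 by edgeR, 87 by DESeq2 and 10 to 313 when 1 library was left out. Deviations of same-numbered samples had r from -0.0777 to 0.0656, and those of differently numbered samples r from -0.1276 to 0.1335. With 3 libraries per group these values cannot exclude a shared preparation, and the labels give only a number. With the replicate block 81 and 309 regions were called, and 0 of the 9 genes. The deposited scale moved the median of all regions to -0.12 and -0.13 and that of the 9 genes to -0.11 for H3K27ac and -0.17 for H3K27me3. Leaving out 1 library moved the H3K27ac median of the 9 genes to between -0.097 and 0.042.

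For the region at or nearest a start site, the direction was kept in 77 of 84 H3K27ac values and 91 of 98 H3K27me3 values over the alternatives, with adjusted p-values no lower than 0.502 and 0.0752. On the deposited scale the sign turned at Csf1r in H3K27ac (-0.080) and at Ptprc (-0.047) and Spi1 (-0.0053) in H3K27me3. With 1 library left out, H3K27ac differences ran from -0.076 to 0.14 at Csf1r, -1.02 to 0.038 at Itgam, -0.46 to 0.10 at Spi1 and -0.58 to 0.26 at Ikzf1. H3K27me3 differences ran from -0.093 to 0.018 at Itgam, -0.11 to 0.054 at Lyz2, -0.012 to 0.14 at Ptprc and -0.016 to 0.25 at Spi1. Cd68 and Ptprc in H3K27ac, and Adgre1, Laptm5 and Ikzf1 in H3K27me3, kept their sign when any 1 library was left out, at -0.22 to -0.065, 0.11 to 0.47, -0.72 to -0.40, -0.16 to -0.087 and -0.33 to -0.13. The Ikzf1 value nearest 0 was that without old replicate 2. Genes with an H3K27ac region over a TSS numbered 2, against 1 with the 5′ end of the gene record and 1 with regions at or above the median density, and 3 with 5 kb on each side of the TSS. For H3K27me3 they numbered 4, and 5 with 5 kb on each side. Genes with an H3K27ac region in the window numbered 6, against 3 with regions at or above the median density. Genes with an H3K27me3 region in the window numbered 7, and also 7 with regions at or above the median density. The cause of these changes was not tested. Regions with few reads limit what can be seen for H3K27ac.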

Other observations

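Endothelial genes, which mark the lining of blood vessels, also had more Polycomb-covered than acetylated start sites. H3K27me3 lay over a TSS of 8 of 10 of them, with the highest densities at Sox17 (2.55), Kdr (1.12) and Cdh5 (1.10), and H3K27ac over that of Pecam1 (1.60) alone. Of the 26 H3K27me3 regions in their windows, 0 were called between ages, against 0.488% of all regions, and 9 had age groups without overlap, against 19.1%, and the smallest adjusted p was 0.0826 (limma). Of the 18 H3K27ac regions, 0 were called, against 0.0822%, and 4 had groups without overlap, against 14.5%.

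Among the 18 stromal and MSC markers, Twist2, Lepr and Nt5e carried both marks over a TSS, with H3K27me3 densities of 1.63, 0.756 and 0.717. Near the 10 standard Polycomb targets, 10 of 11 H3K27me3 regions were lower in old cells, against 51.4% of all regions. Their median was -0.20 on the log2 scale, against -0.008 over all regions, which the scaling holds near 0. Of the 11, 0 were called, against 0.488%. The old H3K27me3 libraries also had a lower share of reads in called regions, and its bearing on these differences was not tested.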
